A study of Mus musculus with 6 samples.

Results

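Hippocampal RNA was read for 9 nuclear or imprinted long noncoding RNAs. These were the rows of the gene table named Malat1, Neat1, Meg3, Rian, Mirg, Miat, Snhg11, Snhg14 and Peg13. They were 9 of the 54532 genes of the table. All 9 passed the filter on low values, an FPKM (the read count scaled to gene length and library size) averaging 0.1 or more over the 6 libraries. The libraries came from 3 wild type mice (WT1 to WT3) and 3 transgenic mice (TG1 to TG3). The TG mice are knock-in mice made with CRISPR/Cas9, in which the G82R and L85P changes were placed together in exon 3 of Slc1a2, the gene of the astrocytic glutamate transporter GLT-1. The allele was made on C57BL/6N and the founders were mated with C57BL/6 mice. It is a change of the endogenous gene, not a transgene driven by a promoter. Age, sex and zygosity of the sequenced mice are not given in the sources used here, and the label gives brain, hippocampal, as the tissue. No label says more of how the 3 mice of a group relate, so p-values measure the spread between these samples. Values below are given in the order of the replicate numbers.

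Long noncoding RNAs of this kind stay mostly in the nucleus. Malat1 gathers in nuclear speckles, the stores of splicing factors, and Neat1 is the scaffold of paraspeckles, where it holds proteins such as Nono and Sfpq. Meg3, Rian and Mirg are read from the maternal chromosome of the imprinted Dlk1-Dio3 region, Rian carrying C/D box snoRNAs and Mirg a cluster of microRNAs. Snhg14 is the paternally expressed host of the Prader-Willi snoRNAs and runs antisense into Ube3a, and Peg13 is a paternally expressed RNA from an intron of Trappc9. Miat, also called Gomafu, is a neuronal nuclear RNA with repeated UACUAAC elements, the letters that splicing factors read at the intron branch point. Snhg11 is a neuron-rich host of snoRNAs.

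The first sequences to see are the 3′ regions of Malat1 and Neat1, since Malat1 and the long form of Neat1 lack a poly(A) tail and end in a triple helix made of U-rich stretches and an A-rich stretch. The stretches that the RNAs share are in capitals (13, 16 and 11 bases), read 5′ to 3′ from the minus strand of GRCm38 with GENCODE M21 transcripts Malat1-201 (chr19:5795977-5796070) and Neat1-201 (chr19:5824708-5824802). The Neat1 piece runs to the end of its annotated transcript, and the Malat1 piece stops 287 bases before the end of its own.
Malat1: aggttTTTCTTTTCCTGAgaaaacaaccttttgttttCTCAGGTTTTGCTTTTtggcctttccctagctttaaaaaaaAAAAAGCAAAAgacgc
Neat1: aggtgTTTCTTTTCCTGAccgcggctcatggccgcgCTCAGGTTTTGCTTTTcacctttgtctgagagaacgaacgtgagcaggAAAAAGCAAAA
Of 141767 annotated mouse transcripts, 2 held all 3 stretches in this order with at most 100 bases between them, 1 from Malat1 and 1 from Neat1. The longest stretch alone occurred in the same number of transcripts, 2. The stretches were taken from what these 2 transcripts share, so both meet each search by that choice.

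The repeats of Miat are shown because they set it apart from the other members. This piece of Miat-205 (chr5:112217309-112217459, minus strand, GRCm38) has ACTAAC in capitals.
Miat: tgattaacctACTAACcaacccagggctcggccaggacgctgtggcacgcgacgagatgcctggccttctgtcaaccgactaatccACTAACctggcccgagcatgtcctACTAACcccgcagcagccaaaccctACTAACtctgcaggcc
The transcript held ACTAAC 11 times and TACTAAC 6 times, counted on the transcript strand, and every TACTAAC is also an ACTAAC. Among the 7040 transcripts of at least 5000 bases, 3 (0.0426%) held TACTAAC at least 6 times, and they came from Miat and Slc8a1. ACTAAC stood at least 11 times in 13 of them (0.185%), from 9 genes, with Miat, Slc8a1 and Kcnq1ot1 among these. Both cut-offs are the counts of Miat itself, so Miat meets them by choice of the cut-off. Neat1-201 held ACTAAC 4 times, and the chosen transcripts of the other members held it at most once.

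The promoters of Meg3 and Miat are printed because these RNAs had the most alike profiles over the libraries. RefSeq (GRCm38.p6) had promoter windows, 300 bases around the start, for 7 of the 9 members. The windows of Miat, Mirg and Snhg14 did not hold the start of the gene table. That of Snhg14 (chr7:60450128-60450427) lies far from it, beyond the neighbouring gene Snrpn. Neat1 and Peg13 were not matched. The capitals in the Meg3 window (chr12:109540746-109541045, plus strand, the first of its starts) mark TGACGTCA, the palindrome of the cAMP response element, and TATAAA on both strands, where the matches overlap each other. The capitals in the Miat window (chr5:112228899-112229198, minus strand) mark GGGCGG on the other strand.
Meg3: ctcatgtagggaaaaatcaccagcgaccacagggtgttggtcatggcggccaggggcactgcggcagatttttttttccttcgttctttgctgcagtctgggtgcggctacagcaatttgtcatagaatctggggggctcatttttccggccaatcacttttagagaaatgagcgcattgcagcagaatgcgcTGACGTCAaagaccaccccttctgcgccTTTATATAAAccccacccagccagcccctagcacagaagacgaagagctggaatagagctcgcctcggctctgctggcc
Miat: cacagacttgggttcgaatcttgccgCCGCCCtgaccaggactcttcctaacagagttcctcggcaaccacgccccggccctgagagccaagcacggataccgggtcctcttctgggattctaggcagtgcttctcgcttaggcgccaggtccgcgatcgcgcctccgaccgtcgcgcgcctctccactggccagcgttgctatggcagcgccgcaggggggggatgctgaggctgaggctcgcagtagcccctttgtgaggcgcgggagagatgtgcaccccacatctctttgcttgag
Of 32544 RefSeq promoter windows, TGACGTCA stood in 1.80%, TATAAA in 13.6% and GGGCGG in 35.9%, searched on both strands. CACGTG, in 7.17% of windows, stood in no member's window. None of the motifs searched stood in both windows.

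The microRNAs inside the imprinted cluster are carried by introns or exons of the hosts. By their RefSeq positions, 3 mature microRNAs lay inside the span of Meg3, 6 inside Rian and 26 inside Mirg, on the strand of the host. Of these, 10 are shown, with the seed (bases 2 to 8) in capitals. They are the best known of each host, those whose genes had most reads in Rian, and the only pair that shared a seed.
Meg3 miR-770-5p: aGCACCACgugucugggccacg
Rian miR-341-5p: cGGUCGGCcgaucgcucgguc
Rian miR-1188-5p: uGGUGUGAgguugggccagga
Rian miR-370-3p: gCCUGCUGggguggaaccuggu
Mirg miR-134-5p: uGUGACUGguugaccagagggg
Mirg miR-485-3p: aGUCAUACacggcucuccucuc
Mirg miR-154-5p: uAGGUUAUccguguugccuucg
Mirg miR-410-3p: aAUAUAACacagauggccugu
Mirg miR-453: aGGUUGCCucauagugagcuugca
Mirg miR-496a-5p: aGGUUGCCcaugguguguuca
Only miR-453 and miR-496a-5p had the same seed, GGUUGCC. The others of the 35 mature sequences had a seed of their own within these hosts.

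**Figure D1:**
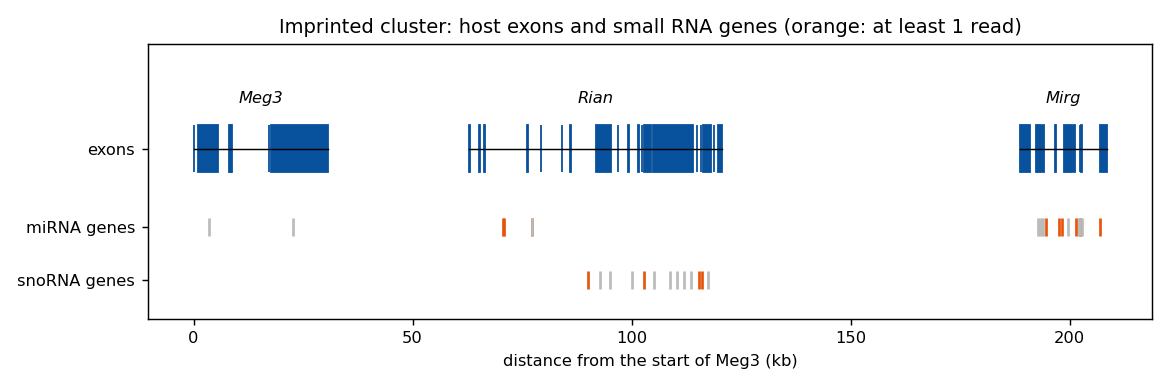
Map of the imprinted cluster, with the distance from the start of Meg3 in kb on the x axis, exons of Meg3, Rian and Mirg as blue blocks, and microRNA and snoRNA genes inside the hosts as ticks. Ticks are orange where the 6 libraries together had at least 1 read, which was so for 0 of 2 small RNA genes in Meg3, 7 of 17 in Rian and 7 of 15 in Mirg. How reads shared with a host exon were counted is not given, so a tick without reads does not show that the RNA was absent.

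The libraries held 16081281 (WT2) to 18751057 (WT3) reads on genes, and at 1 kb of length 3 reads were worth 0.160 to 0.190 FPKM. Slc1a2 averaged 193 ± 13.8 FPKM among WT mice and 215 ± 7.61 FPKM among TG mice (SD over 3 mice, log2 fold change 0.16, SE 0.086, limma adjusted p = 0.789), which does not read the changed bases. Markers fixed for 10 cell types were read in the same fit, and every one passed the filter. Those of neurons (11 genes), hippocampal neurons (9) and astrocytes (9) were present in every library, with summed FPKM of 1592 to 1812, 298 to 364 and 523 to 596. Choroid plexus markers stood apart: the summed FPKM of 15 genes was 59.6 to 84.3 among the WT libraries, but 1228 for TG1, 3875 for TG2 and 67.5 for TG3, and 8 of 15 had an unadjusted p under 0.05. The 9 oligodendrocyte markers summed to 665 to 832 among WT mice and to 517, 713 and 765 among TG mice, with a median log2 fold change of -0.30. Microglia (154 to 215), endothelium (73.0 to 85.5), oligodendrocyte precursors (69.0 to 82.3), meninges (12.5 to 26.3) and blood (143 to 202) had the summed FPKM given in brackets, lowest to highest library. Fewer cells of a type and less RNA per cell cannot be told apart in such tissue.

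Snhg11, Peg13, Meg3 and Malat1 had the highest levels, with mean FPKM over the 6 libraries of 68.3, 64.6, 61.7 and 57.2, above 96.4% to 97.1% of the genes tested. Their order changed between libraries: each of these RNAs was above the next in 3 or 4 of 6 libraries. Miat (23.2) and Rian (20.6) came next and were in this order in 3 of 6 libraries. Neat1 (3.80), Snhg14 (2.25) and Mirg (1.18) followed, each below the one before in 6 of 6 libraries. They were above 57.7%, 48.4% and 38.8% of the genes tested, so not every member was abundant here. FPKM are per length of the annotated gene, and the annotated genes run from 4725 bases in Peg13 to 26093 bases in Snhg14. The methods and the labels name different kits, and how fully RNAs without a poly(A) tail were captured was not tested. The levels of Malat1 and Neat1 may therefore not compare with those of the other members, or with each other.

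**Figure D2:**
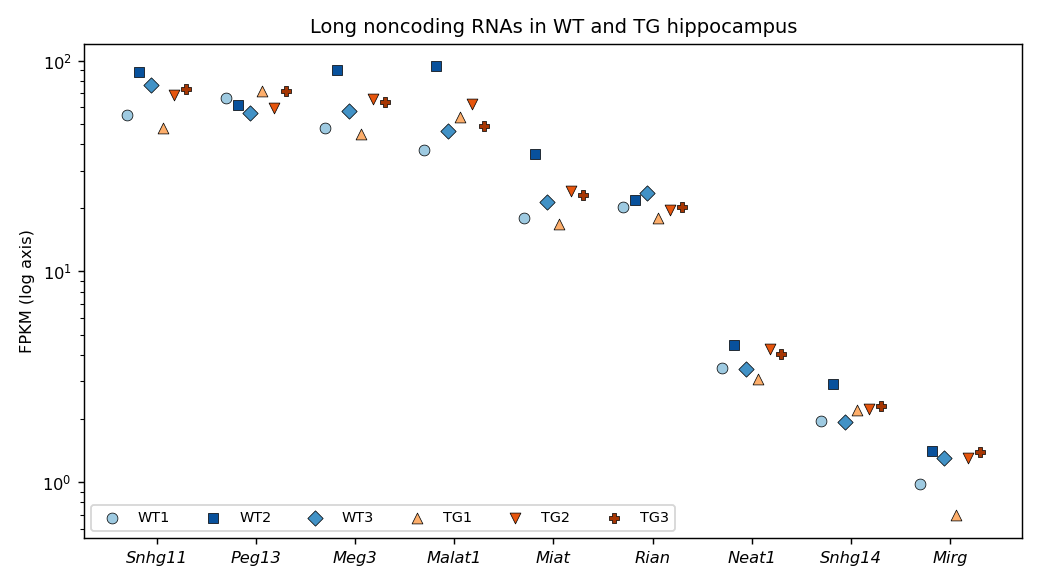
FPKM of the 9 long noncoding RNAs on a log axis, 1 point per library, with WT libraries in blue and TG libraries in orange. The square of WT2 is the highest WT point for 7 of 9 RNAs, and the light triangle of TG1 is the lowest TG point for 7 of 9.

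No member passed the test between TG and WT mice. By limma, 0 of 9 had an adjusted p under 0.05, 0 of 9 had an unadjusted p under 0.05, and limma-voom on the reads recovered from the FPKM gave 0 of 9 for both. Over all 20952 genes tested, 5.91% had an unadjusted p under 0.05 (2.78% lower and 3.13% higher in TG) and 0.00955% an adjusted p under 0.05. Of the members, 7 had a log2 fold change below 0 and 2 above, with a median of -0.14 against -0.0020 for all genes tested. The adjusted p-values lay between 0.786 and 0.999. The 95% intervals were wide for some members and narrow for others, from 0.39 log2 units (Rian) to 1.46 (Malat1).

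Malat1 (ENSMUSG00000092341, chr19:5795690-5802672, minus strand, 1 exon block) had an FPKM of 37.6, 93.9 and 46.5 among WT mice and 53.8, 62.4 and 48.7 among TG mice. WT2 was the highest of all 6 libraries and WT1 the lowest, so the TG values lay inside the WT range. The log2 fold change was -0.0012 (SE 0.310, 95% interval -0.73 to 0.73, adjusted p = 0.997 by limma), which spans 0.603-fold to 1.66-fold. This value depended on which WT libraries were kept. Without WT2 the log2 fold change was 0.39, with an unadjusted p of 0.0434 and an adjusted p of 0.636 by limma. WT2 held the highest value, so leaving it out could only raise the difference. Without WT1 it was -0.27 and without WT3 -0.12. Within WT mice the highest library had 2.50 times the lowest, and 97.7% of 13325 genes averaging 1 FPKM or more had a smaller SD of log2 levels among the WT libraries.

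Neat1 (ENSMUSG00000092274, chr19:5824708-5845478, minus strand) lies 22035 bases from Malat1 and had 3.47, 4.47 and 3.44 FPKM in WT mice and 3.08, 4.30 and 4.03 in TG mice. WT2 and TG2 were the high libraries and TG1 the low one, and the groups overlapped. TG minus WT was -0.00025 on the log2 scale (SE 0.162, 95% interval -0.38 to 0.38, adjusted p = 0.999 by limma). The table has 1 row for Neat1, with its long form of 20771 bases as the length, so the short and the long form were not told apart. Neat1 per Malat1 was 0.0923, 0.0477 and 0.0739 in WT mice and 0.0571, 0.0688 and 0.0828 in TG mice. The ratio was lowest in WT2, where Malat1 was highest.

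Miat (ENSMUSG00000097767, chr5:112213228-112229395, minus strand) had 17.96, 36.1 and 21.4 FPKM in WT mice and 16.7, 24.0 and 23.1 in TG mice. WT2 was highest and TG1 lowest, as for Meg3. TG minus WT was -0.19 on the log2 scale (SE 0.261, 95% interval -0.81 to 0.42, adjusted p = 0.858 by limma). It was 0.10 without WT2 and -0.40 without WT1. Other annotated genes overlap 30.4% of the exon bases of Miat, most of them on the other strand, and whether reads were counted by strand is not given in the sources used here.

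In the imprinted cluster on chromosome 12, Meg3 was above Rian, and Rian above Mirg, in 6 of 6 libraries. Meg3 (ENSMUSG00000021268, chr12:109541001-109571726, plus strand) had 48.0, 90.6 and 57.5 FPKM in WT mice and 44.7, 65.9 and 63.6 in TG mice. WT2 stood above the rest and TG1 below. The log2 fold change was -0.14 (SE 0.248, 95% interval -0.72 to 0.44, adjusted p = 0.895 by limma). It was 0.12 without WT2 and -0.34 without WT1.

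Rian (ENSMUSG00000097451, chr12:109603940-109661716, plus strand) begins 32213 bases after Meg3 ends. It had 20.2, 21.9 and 23.6 FPKM in WT mice and 17.9, 19.6 and 20.2 in TG mice. Every TG library was below every WT library, the nearest being TG3 and WT1, both at 20.2, and Rian was the only member whose groups did not overlap. Over all genes tested, the groups did not overlap for 12.1%. The log2 fold change was -0.18 (SE 0.083, 95% interval -0.38 to 0.01, adjusted p = 0.786 by limma, unadjusted 0.0626), so the difference did not pass the test. The fold of 0.769 to 1.01 allowed by the interval is the narrowest among the members. Without WT1 the log2 fold change was -0.24, with an unadjusted p of 0.0322 and an adjusted p of 0.682 by limma, and with the mean log2 level of choroid plexus markers as a covariate it was -0.13.

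Mirg (ENSMUSG00000097391, chr12:109729764-109749460, plus strand), the microRNA host, begins 68047 bases after Rian ends. It had 0.979, 1.40 and 1.30 FPKM in WT mice (132, 165 and 178 reads) and 0.693, 1.30 and 1.38 in TG mice (80, 170 and 182 reads). TG1 was the lowest library and WT1 the next, and the other libraries lay between 1.30 and 1.40. The difference was -0.16 on the log2 scale (SE 0.275, 95% interval -0.80 to 0.49, adjusted p = 0.895 by limma), and without TG1 it was 0.13.

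The members of the cluster did not keep a fixed ratio. Rian per Meg3 was 0.420, 0.241 and 0.410 in WT mice and 0.401, 0.298 and 0.318 in TG mice. The lowest ratio was that of WT2, where Meg3 was high and Rian was not. Mirg per Meg3 was 0.0204, 0.0155 and 0.0227 in WT mice and 0.0155, 0.0197 and 0.0217 in TG mice, and the groups overlapped. Miat per Meg3, a pair from different chromosomes, ran from 0.363 to 0.399 over the 6 libraries.

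**Figure D3:**
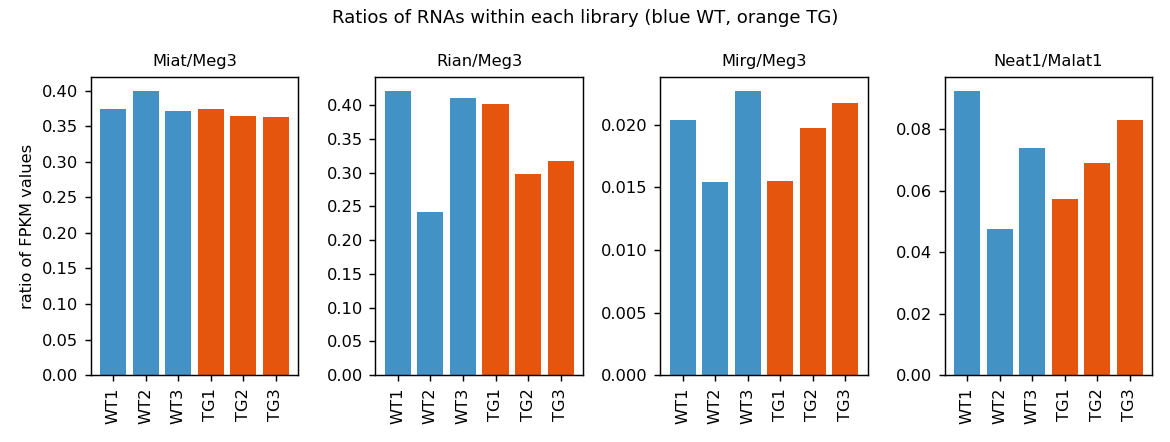
Ratios of FPKM within each library, with WT libraries in blue and TG libraries in orange and each axis starting at 0. Miat per Meg3 stays between 0.363 and 0.399, whereas Rian per Meg3 drops to 0.241 in WT2 and Neat1 per Malat1 to 0.0477.

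Snhg11 (ENSMUSG00000044349, chr2:158375638-158386145, plus strand), which the table lists as protein_coding, had 55.0, 88.2 and 76.9 FPKM in WT mice and 47.9, 69.0 and 73.0 in TG mice. WT1 and TG1 were the low libraries and the groups overlapped. On the log2 scale the difference was -0.21 (SE 0.214, 95% interval -0.71 to 0.29, adjusted p = 0.812 by limma). Of the members it had the log2 fold change farthest from 0, and without TG1 it was -0.020.

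Snhg14 (ENSMUSG00000100826, chr7:59307924-59975759, minus strand) has exons over 3.91% of its span. It had 1.96, 2.91 and 1.92 FPKM in WT mice and 2.18, 2.23 and 2.29 in TG mice. The TG libraries lay within 1.05-fold of each other, and the WT libraries within 1.52-fold, with WT2 above the rest. On the log2 scale TG minus WT was 0.0057 (SE 0.173, 95% interval -0.40 to 0.41, adjusted p = 0.995 by limma). It was 0.19 without WT2 and -0.094 without WT3. Other genes overlap 7.73% of its exon bases, among them Ube3a, the ubiquitin ligase gene it runs against.

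Peg13 (ENSMUSG00000106847, chr15:72805600-72810324, minus strand, 1 exon block) had 66.3, 61.7 and 56.6 FPKM in WT mice and 71.5, 59.9 and 71.7 in TG mice. TG1 and TG3 were above the highest WT library and TG2 was inside the WT range. The log2 fold change was 0.13 (SE 0.099, 95% interval -0.10 to 0.37, adjusted p = 0.789 by limma). No other gene overlaps its exon.

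**Figure D4:**
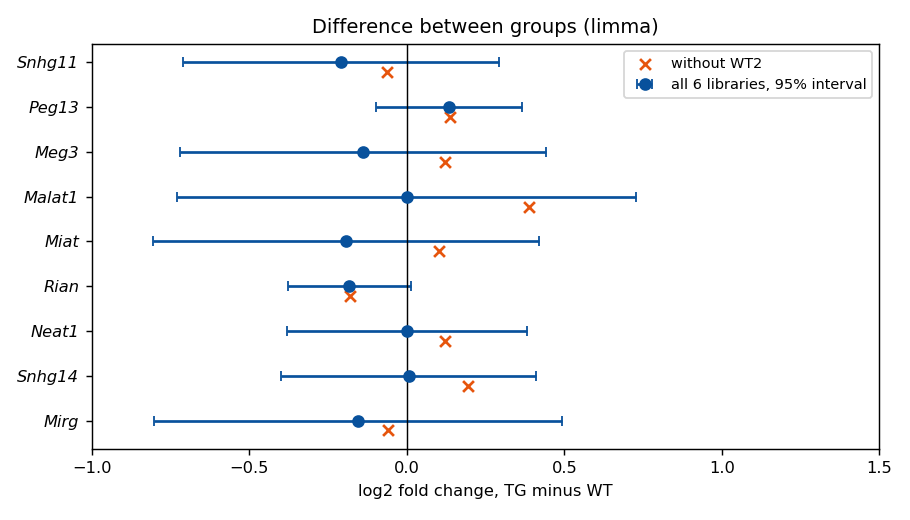
Log2 fold change of each long noncoding RNA, TG minus WT, from limma on log2(FPKM + 0.1), with 95% intervals in blue and the value without WT2 as an orange cross. All 9 intervals include 0, and the crosses of Malat1 (0.39), Snhg14 (0.19), Peg13 (0.14), Neat1 (0.12), Meg3 (0.12) and Miat (0.10) are above 0. WT2 was the highest WT library for 7 of 9 RNAs, so leaving it out must raise the value of those RNAs.

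Most members varied between mice of 1 group. Relative to the WT mean, the median of the 9 members on the log2 scale was -0.29, 0.29 and -0.13 among WT mice and -0.28, 0.0029 and 0.021 among TG mice. In WT2 all 9 were at or above the WT mean, and 7 of 9 had their highest WT value there. In WT1, 6 of 9 had their lowest WT value, and in TG1, 7 of 9 their lowest TG value. The median over all genes tested was between -0.0050 and 0.0015 in every library. The members took 0.260%, 0.427% and 0.304% of the reads on genes among WT mice and 0.249%, 0.328% and 0.322% among TG mice.

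The swing was larger in some members than in others. The SD of log2 levels among WT libraries was 0.69 for Malat1, 0.52 for Miat, 0.47 for Meg3 and 0.35 for Snhg11, above 90.6% to 97.7% of genes averaging 1 FPKM or more. It was 0.11 for both Peg13 and Rian, below the median of those genes, 0.14. Among TG libraries, Mirg had the highest SD of the members (0.50, with 80 to 182 reads) and Snhg14 the lowest (0.031).

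Other features also varied between the libraries, in part unlike the members. Relative to the WT mean, annotated snoRNA genes (61 averaging 1 FPKM or more) had medians of -0.17, 0.40 and -0.071 among WT mice. Among TG mice they had -0.16, 0.34 and 0.18. All snoRNA genes together had only 419 (TG1) to 561 (WT2) reads a library. Antisense genes (169) had 0.16 in WT2 and -0.16 in TG1. Genes listed as processed_transcript (102) or TEC (82) were higher in WT3 (0.047 and 0.080) than in WT2 (0.019 and 0.054). Genes listed as lincRNA (238, Malat1, Neat1, Meg3, Mirg and Miat among them) had -0.069, 0.051 and 0.052 among WT mice and -0.16, -0.047 and -0.059 among TG mice, so WT3 was as high as WT2, unlike the members. Protein-coding genes (11917) stayed between -0.010 and 0.012. TG1 also had the lowest share of mitochondrial reads, 3.43% against 4.33% to 4.87% in the other libraries, and the lowest oligodendrocyte markers, a median of -0.66 on the log2 scale. The part of these in the members' values was not tested. With oligodendrocyte or choroid plexus markers as a covariate, 0 members had an adjusted p under 0.05 by limma. It was 0 without them too, so this count does not measure that part. Without a covariate, Meg3, Mirg and Miat had log2 fold changes of -0.14, -0.16 and -0.19. With the oligodendrocyte covariate they had 0.093, 0.18 and 0.029, with unadjusted p of 0.769, 0.578 and 0.932 by limma. Without and with it, Malat1 had -0.0012 and 0.0042, Neat1 -0.00025 and 0.21, and Rian -0.18 and -0.16. Likewise Snhg11 had -0.21 and -0.020, Snhg14 0.0057 and 0.065, and Peg13 0.13 and 0.14. The markers were themselves lower in TG mice (median log2 fold change -0.30), and what these shifts mean was not tested.

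**Figure D5:**
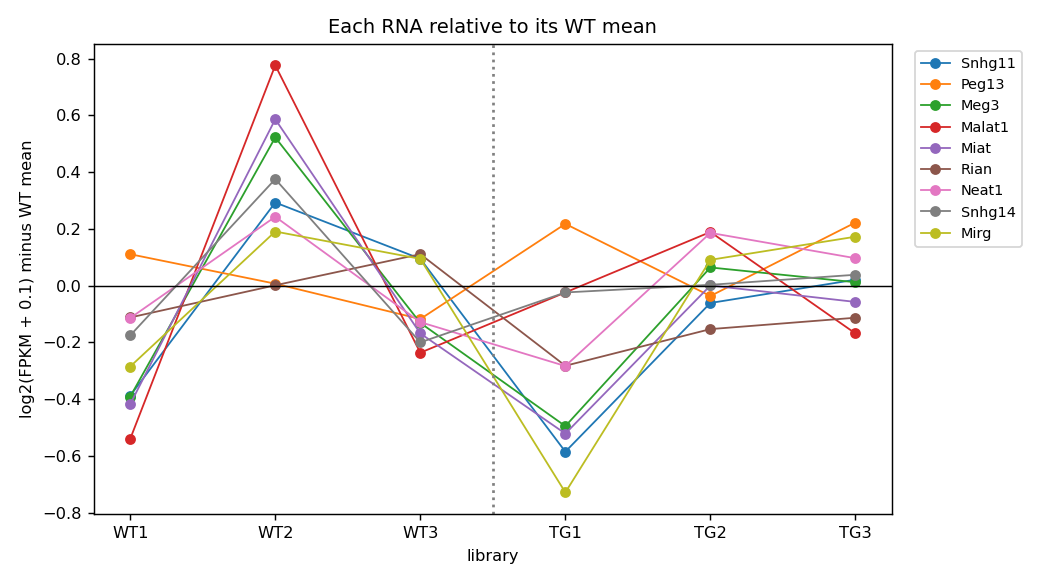
Log2(FPKM + 0.1) of each long noncoding RNA minus its WT mean, by library, with a dotted line between WT and TG libraries. The lines only join the points of 1 RNA, and most of them are above 0 in WT2 and below 0 in WT1 and TG1, whereas Peg13 and Rian stay between -0.28 and 0.22.

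The genes with the most alike profiles were found by the root mean square difference of these values over the 6 libraries, among 13324 genes. For Meg3 the nearest gene was Miat, and for Miat it was Meg3, with a difference of 0.051 log2 units. After Miat came Leng8 (0.099) and Robo3 (0.103) for Meg3, and after Meg3 came Gm35339 (0.105) and AI480526 (0.110) for Miat. For Snhg11 the nearest was Mir124a-1hg (0.039), the host of a neuronal microRNA, then Hbp1 (0.078) and Spaca6 (0.088). Mir124a-1hg was also among the nearest of Mirg (0.096), after Gm6421 (0.094) and Gm13031 (0.095).
For Malat1 no gene was nearer than 0.113 (Gm4617), followed by Gm38020 (0.126) and Gm38102 (0.143). For Neat1 the nearest were Tmem67 (0.044), Mkx (0.049) and Rtel1 (0.050). Snhg14 was nearest to Zc3h11a (0.025), then Cttnbp2 (0.052) and Mdm4 (0.056), and Rian to Car11 (0.025), Prr3 (0.026) and 9330151L19Rik (0.026). Peg13 was nearest to Ttbk2 (0.030), Peli3 (0.033) and Eloa (0.034). These are descriptions over 6 libraries.

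The small RNA genes inside the hosts had few reads. In Rian, 13 snoRNA and 4 microRNA genes had 18, 53 and 20 reads together among WT mice and 18, 54 and 36 among TG mice. WT2 and TG2 were high, the same libraries in which snoRNA genes as a class were high. The gene of miR-1188 had 1, 14 and 3 reads in WT mice and 3, 13 and 4 in TG mice, and that of miR-341 had 1, 8 and 0 and then 1, 9 and 5. In both, WT2 and TG2 held most of the reads and the groups overlapped.
The snoRNA gene DQ267102 in Rian had 3, 4 and 3 reads in WT mice and 6, 6 and 8 in TG mice. Its groups did not overlap, as for 12.1% of all genes tested, and its log2 fold change was 1.01 (SE 0.189, adjusted p = 0.654 by limma), on these few reads. In Mirg, 15 microRNA genes had 9 to 16 reads a library. The gene of miR-154 had 1, 0 and 0 reads in WT mice and 3, 2 and 3 in TG mice, too few to measure a change. In Snhg14, 21 of 208 snoRNA genes had a read, 14 to 31 reads a library in all. Of the small RNA genes of all hosts that lie inside a host exon, 0 of 16 had a read. Of those partly in a host exon 3 of 6 had a read, and of those in an intron 33 of 222. How reads shared by a small RNA gene and a host exon were counted is not given in the sources used here. A count of 0 in an exon therefore does not show that the small RNA was absent.

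The mRNAs of proteins of the nuclear bodies that Malat1 and Neat1 mark were read from lists, as were other genes of the same classes, and 0 of them had an adjusted p under 0.05 by limma. Of 14 paraspeckle protein genes, 0 were higher and 1 lower at an unadjusted p under 0.05, with a median log2 fold change of -0.08 (-0.13 without WT1) and 11 of 14 below 0. The 1 was Ewsr1, an RNA-binding protein of the FET family, with 27.3, 31.1 and 30.3 FPKM in WT mice and 25.1, 26.7 and 25.5 in TG mice (log2 fold change -0.20, SE 0.073, adjusted p = 0.786 by limma). Hnrnpk was the most abundant, at 49.8 to 63.9 FPKM over the libraries and a log2 fold change of -0.14. For both, every TG library was below every WT library. The groups did not overlap for 2 of 14 genes of the list, beside 12.1% of all genes tested.
Of 18 genes of nuclear speckle and splicing proteins, 0 were higher and 1 lower, with a median of -0.11 and 15 of 18 below 0. Without TG1 this median was -0.046, and with the oligodendrocyte markers as a covariate -0.064. The 1 lower gene was Srsf5, a serine/arginine-rich splicing factor and the most abundant of the list. It had 48.2, 56.7 and 63.6 FPKM in WT mice and 41.4, 46.9 and 46.5 in TG mice (log2 fold change -0.32, SE 0.111, adjusted p = 0.786 by limma). The groups did not overlap for 1 of 18 genes of the list, beside 12.1% of all genes tested.

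Of 31 other imprinted genes tested of 34 listed, 1 was higher and 0 lower at an unadjusted p under 0.05, with a median of -0.00048. Of the 31, 15 had a log2 fold change above 0 and 16 below. The groups did not overlap for 2 of 31, beside 12.1% of all genes tested. Igf2r, the maternally expressed receptor that clears Igf2, had 4.75, 4.68 and 3.95 FPKM in WT mice and 6.31, 5.96 and 4.88 in TG mice (log2 fold change 0.35, SE 0.127, adjusted p = 0.786 by limma). Snrpn, a splicing protein gene beside Snhg14 by the gene table, was the most abundant. It had 187, 180 and 249 FPKM in WT mice and 187, 175 and 178 in TG mice. The groups of Snrpn overlapped, with WT3 above the rest.

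Of 34 other long noncoding RNAs tested of 45 listed, 0 were higher and 1 lower at an unadjusted p under 0.05. Their median was -0.19, beside -0.14 for the members, and 28 of 34 were below 0. The groups did not overlap for 7 of 34, beside 12.1% of all genes tested. Snhg10, a snoRNA host, had 4.40, 4.80 and 3.33 FPKM in WT mice and 2.39, 3.16 and 3.56 in TG mice (log2 fold change -0.45, SE 0.188, adjusted p = 0.786 by limma), so its groups overlapped. The most abundant, 2900097C17Rik, had 287 to 329 FPKM in WT mice and 276 to 292 in TG mice. Without TG1, the median of the list was -0.11, and with the oligodendrocyte or the choroid plexus markers as a covariate it was -0.089 or -0.12.

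Around the members, 37 protein-coding neighbours were tested, 1 higher and 0 lower at an unadjusted p under 0.05, with a median of 0.021. Of the 37, 22 had a log2 fold change above 0 and 15 below. The groups did not overlap for 3 of 37, beside 12.1% of all genes tested. By locus, the smallest p belonged to Ltbp3 near Malat1 and Neat1 (log2 fold change 0.44, SE 0.239), Rtl1 near Meg3, Rian and Mirg (-0.38, SE 0.267), Tpst2 near Miat (-0.16, SE 0.099), Ndn near Snhg14 (-0.17, SE 0.104), Ago2 near Peg13 (0.34, SE 0.166) and D630003M21Rik near Snhg11 (0.40, SE 0.144). Only D630003M21Rik had an unadjusted p under 0.05, with an FPKM of 1.11 to 1.23 in WT mice and 1.40 to 1.73 in TG mice, and its adjusted p was 0.786 by limma.
Rtl1, a paternally expressed gene on the strand opposite to Meg3 and Rian, had 0.332, 0.477 and 0.529 FPKM in WT mice and 0.278, 0.333 and 0.331 in TG mice, and the groups overlapped. The paternally expressed genes that flank the cluster, which were looked up for their place in it, gave log2 fold changes of -0.00048 for Dlk1 (SE 0.299) and -0.091 for Dio3 (SE 0.210). Trappc9, which holds Peg13, averaged 11.2 ± 0.104 FPKM among WT mice and 11.4 ± 1.29 FPKM among TG mice (SD over 3 mice). Ube3a, which Snhg14 overlaps, had 4.46 ± 0.233 and 4.73 ± 0.121 FPKM.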

How the data were processed

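The study sequenced hippocampal RNA of 3 WT and 3 TG mice. Its methods name Trizol and a NEBNext Ultra kit, whereas the labels name an RNeasy and a SMARTer kit. The authors counted reads per gene with HTSeq 0.6.0 and deposited FPKM, from the count and the gene length, with 1 column per library. The submitters' processing notes name GRCm38 and mm10. The aligner and the use of strand are not given in the sources used here.

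FPKM times gene length gave whole reads for 100% of values (tolerance 0.05 reads). Intervals on reads cover counting error only. Genes averaging 0.1 FPKM or more (20952 of 54532, of which 30589 were above 0) were tested with limma 3.58.1 in R 4.3.3 (lmFit, eBayes with trend) on log2(FPKM + 0.1), 3 WT against 3 TG libraries, two-sided, without covariate or block, with Benjamini-Hochberg adjustment over all genes tested and a threshold of 0.05. Fold changes on this scale understate those of low genes. The fit was tested on simulated data, with planted changes larger than the differences of the members and no library that stood apart. That run does not show whether differences as small as those of the members can be found. An exact permutation test of 3 against 3 reaches 0.1 at the smallest. The 95% intervals are those of limma.

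Exons and transcripts came from GENCODE M21, where all 9 genes had the same start, end and length as in the table, and promoters and microRNAs from RefSeq. Named were all members, from each list the most abundant gene and that of smallest p, the neighbour with the smallest p of each locus (3 nearest on each side), and the 3 genes nearest in profile among genes averaging 1 FPKM or more. Cell type markers are given as sums. Members, lists and tests were chosen with earlier results of these data known. Dlk1, Dio3, Trappc9, Ube3a and the small RNA genes were named after their values were seen. Alternatives changed the pseudocount (0.01, 1), filter, variance trend, scale, model (voom), marker covariates, replicate block and left-out libraries. Same-numbered WT and TG libraries deviated together with correlations of 0.013, 0.043 and 0.0031, so the numbers were not used as pairs.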

Additional observations from a re-analysis of the deposited data

How the results depend on the processing

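Under every alternative run, the adjusted p of each member stayed above 0.05 (0.636 at the smallest), and the median of all genes moved by at most 0.03 on the log2 scale. Rian stayed below 0 and Peg13 above 0 under each, and Snhg11 below 0. The direction changed for members near 0 or with a library that stood apart. On the TPM scale the log2 fold change was 0.034 for Malat1 and 0.034 for Neat1; by voom, 0.00072 and 0.0034; with pseudocount 1, 0.00049 for Neat1 and -0.00064 for Snhg14; with the upper quartile scale, -0.00070 for Snhg14. The oligodendrocyte covariate gave 0.0042 for Malat1, 0.21 for Neat1, 0.093 for Meg3, 0.18 for Mirg and 0.029 for Miat, and the choroid plexus covariate 0.00037 for Neat1 and 0.0076 for Mirg. Leaving out 1 library in turn gave -0.27 to 0.39 for Malat1, -0.093 to 0.14 for Neat1, -0.34 to 0.12 for Meg3, -0.32 to 0.13 for Mirg, -0.40 to 0.10 for Miat, -0.094 to 0.19 for Snhg14, -0.24 to -0.13 for Rian, -0.40 to -0.020 for Snhg11 and 0.076 to 0.22 for Peg13, and a count of 0 to 1 members at an unadjusted p under 0.05. The cause was not tested.

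With the replicate number as a block, 1 member (Rian, limma adjusted p = 0.785) had an unadjusted p under 0.05, 3 speckle proteins, 2 other long noncoding RNAs and 2 neighbours did, and the adjusted p under 0.05 was met by 0 genes. Over all genes, the count at an adjusted p under 0.05 was 2, with 0 under both pseudocounts, no filter, the TPM scale, voom and both covariates, 1 with a filter of 1, 9 without the trend, and 0 to 6 with 1 library left out (6 without TG1). Under the choroid plexus covariate, 330 genes were higher and 368 lower at an unadjusted p under 0.05, and with 1 library left out 449 to 747 and 406 to 717. List counts at that threshold moved by a few genes. Paraspeckle proteins had 0 without the trend, on the TPM scale and under both covariates, and 0 to 2 with 1 library left out. Speckle proteins had 0 without the trend and under both covariates, and 0 to 4. Other imprinted genes had 0 without the trend, 2 on the TPM scale and under the choroid plexus covariate, and 0 to 3. Other long noncoding RNAs had 2 with pseudocount 0.01, a filter of 1 and the upper quartile scale, 0 on the TPM scale and by voom, and 0 to 3. Neighbours had 2 without the trend, by voom and under both covariates, and 1 to 3. Low counts limit the small RNA genes inside the hosts, such as that of miR-154 with 0 to 3 reads a library. Why the counts were low was not tested.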
